A study of Mus musculus with 8 samples.

Results

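The mitochondrial ribosomal proteins of a mouse epicardial cell line were compared between cells that received an empty vector and cells in which Hdac3 was targeted. The genes were taken from the deposited count table by name: every protein-coding row whose symbol begins with Mrpl or Mrps and a number, pseudogenes left out. This gave 77 genes among the 35275 rows of the table, and 76 of them held enough counts to be tested, among 12801 tested genes in all. RNA was sequenced from 4 empty vector libraries (EV) and 4 Hdac3 CRISPR/Cas9 libraries (KO) of one cell line of the outer layer of the heart, called MEC or MCEC in the labels, grown in high-glucose medium with serum. The labels describe lentiviral delivery and give no strain, age, guide sequence or clone. They do not say that the replicates were separate cultures, so the p-values measure only the spread between these libraries, which may be technical. The characteristics field of KO replicate 1 gives the empty vector, against the KO in its title, which was used to group it.

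The mitochondrial ribosome translates the few mRNAs that the mitochondrial genome encodes, all for subunits of the respiratory chain and ATP synthase. Its RNAs come from mitochondrial DNA, whereas all of its proteins are encoded in the nucleus, made on cytosolic ribosomes and imported. A large subunit joins amino acids, and a small subunit reads the codons. Some of the proteins have a counterpart in bacteria and others are specific to mitochondria. Hdac3 is a histone deacetylase, the catalytic partner of the NCoR and SMRT corepressors. In bulk RNA, fewer cells of a type and less RNA per cell cannot be told apart.

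Promoters of these genes often carry short motifs for NRF1, for ETS factors such as GABP, and for YY1, which are known regulators of nuclear genes for mitochondria. RefSeq promoters (GRCm38.p6, 300 bases around the start) matched 68 of the 77 genes. The motifs searched on both strands were the palindrome-like NRF1 site, the ETS site CCGGAAGT and the YY1 site AAGATGGCG, none of which contains another. At least 1 of the 3 motifs lay in 31 of the 68 promoters (45.6%), against 22.9% of the 9086 promoters of tested genes and 10.3% of all 27025 promoters. The NRF1 motif was in 13 (19.1%, against 11.8% of tested genes), the ETS motif in 12 (17.6%, against 9.28%) and the YY1 motif in 8 (11.8%, against 3.68%). A match is a string of letters and does not show binding. The 150 bases before the start of 4 genes, 1 for each motif and 1 that shares its promoter with a mitotic gene, are given 5′ to 3′ with the motif in capitals. These bases lie at chr13:14613038-14613187 on the minus strand for Mrpl32, at chr13:73330859-73331008 on the plus strand for Mrpl36, at chr9:98601680-98601829 on the minus strand for Mrps22 and at chr14:57826089-57826238 on the plus strand for Mrpl57.
Mrpl32 (NRF1): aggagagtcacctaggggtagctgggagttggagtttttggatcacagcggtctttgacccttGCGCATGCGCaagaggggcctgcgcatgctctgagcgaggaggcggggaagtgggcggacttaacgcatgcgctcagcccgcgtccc
Mrpl36 (YY1, on the other strand): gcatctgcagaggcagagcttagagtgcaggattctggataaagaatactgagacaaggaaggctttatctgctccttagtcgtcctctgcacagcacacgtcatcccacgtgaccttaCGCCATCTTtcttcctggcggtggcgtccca
Mrps22 (ETS): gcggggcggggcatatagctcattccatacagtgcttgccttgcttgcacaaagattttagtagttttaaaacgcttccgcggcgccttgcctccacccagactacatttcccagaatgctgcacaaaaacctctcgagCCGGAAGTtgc
Mrpl57 (NRF1): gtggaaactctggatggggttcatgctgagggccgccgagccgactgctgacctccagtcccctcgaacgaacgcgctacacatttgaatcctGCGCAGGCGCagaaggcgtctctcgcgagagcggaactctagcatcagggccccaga
The median log2 fold change (KO minus EV) of the tested members was 0.08 with the NRF1 motif (13 genes) and 0.09 without it (54 genes). It was 0.05 with the ETS motif (12 genes) and 0.09 without (55 genes), and 0.19 with the YY1 motif (8 genes) and 0.08 without (59 genes).

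The libraries held between 18063745 and 24564892 counts assigned to genes, of which the mitochondrial ribosomal proteins took 0.191% to 0.218%. Hdac3 mRNA stood at 60.3, 61.4, 64.0 and 61.7 CPM (counts relative to library size, scaled by the trimmed mean of M values) in EV (replicates in order, here and throughout) and at 63.2, 56.9, 63.9 and 62.6 in KO. The exact permutation test over the 70 arrangements of the libraries gave a two-sided p of 0.943, where the smallest possible is 0.0286, and edgeR an adjusted p of 0.956. An edit that leaves the transcript in place would not change this count, so the Hdac3 mRNA does not check the labels. EV replicate 4 stood apart for the mitochondrial ribosomal proteins. Their summed level was 1873 CPM there, against 2052 to 2157 in the other EV libraries and 2081 to 2212 in the KO libraries. EV replicate 4 was the lowest of the 8 libraries for 44 of the 76 tested members (57.9%), against 21.2% of all tested genes. Of 14 epicardial and mesothelial markers, 13 reached 1 CPM, and their summed level was 5454 to 5796 CPM in EV and 5342 to 5482 in KO. Changes in opposite directions cancel in this sum. In edgeR 4 of the 13 tested markers rose (30.8%, beside 12.6% of all tested genes) and 5 fell (38.5%, beside 13.4%). Krt18 was at 472, 429, 461 and 435 CPM in EV and 655, 664, 650 and 649 in KO. There KO replicate 1 lay inside the range of the other KO libraries. Log2 fold changes were 0.54 for Krt18, -0.95 for Bnc2, 1.66 for Krt8 and 0.44 for Msln (edgeR adjusted p 2.3e-08, 8.5e-08, 1.9e-07 and 3.7e-07).

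The transcripts of the mitochondrial ribosomal proteins changed little. In edgeR's quasi-likelihood test with Benjamini-Hochberg adjustment over all tested genes, 10 of 76 rose in KO (13.2%), beside 12.6% of all tested genes, and 0 fell, beside 13.4%. The share that rose was thus near the background. At an unadjusted p under 0.05 in edgeR, 21 of 76 members differed and none of those was lower. Of all 12801 tested genes 4708 differed at that level, 2363 of them lower. DESeq2 and limma-voom each called 0 members lower. The median log2 fold change was 0.08 over the members and 0.01 over all tested genes. Fold changes were above 0 for 59 members (77.6%, beside 51.0% of all tested genes) and below 0 for 17. They ran from -0.19 for Mrps22 to 0.37 for Mrps36, a ratio of 1.29. The 4 EV and 4 KO values did not overlap for 5 members (6.58%), beside 26.5% of all tested genes. Removing 1 library moved the count of members that rose by over 1.5 times in 4 cases. The count was 2 without EV replicate 3, 2 without EV replicate 4, 3 without KO replicate 1 and 2 without KO replicate 3. Fewer of all tested genes rose too: 9.93% without EV replicate 3, 9.56% without KO replicate 1 and 9.84% without KO replicate 3. Without EV replicate 4 the median fold change of the members was 0.05, with 50 above 0 and 26 below, and 11.9% of all tested genes rose.

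**Figure D1:**
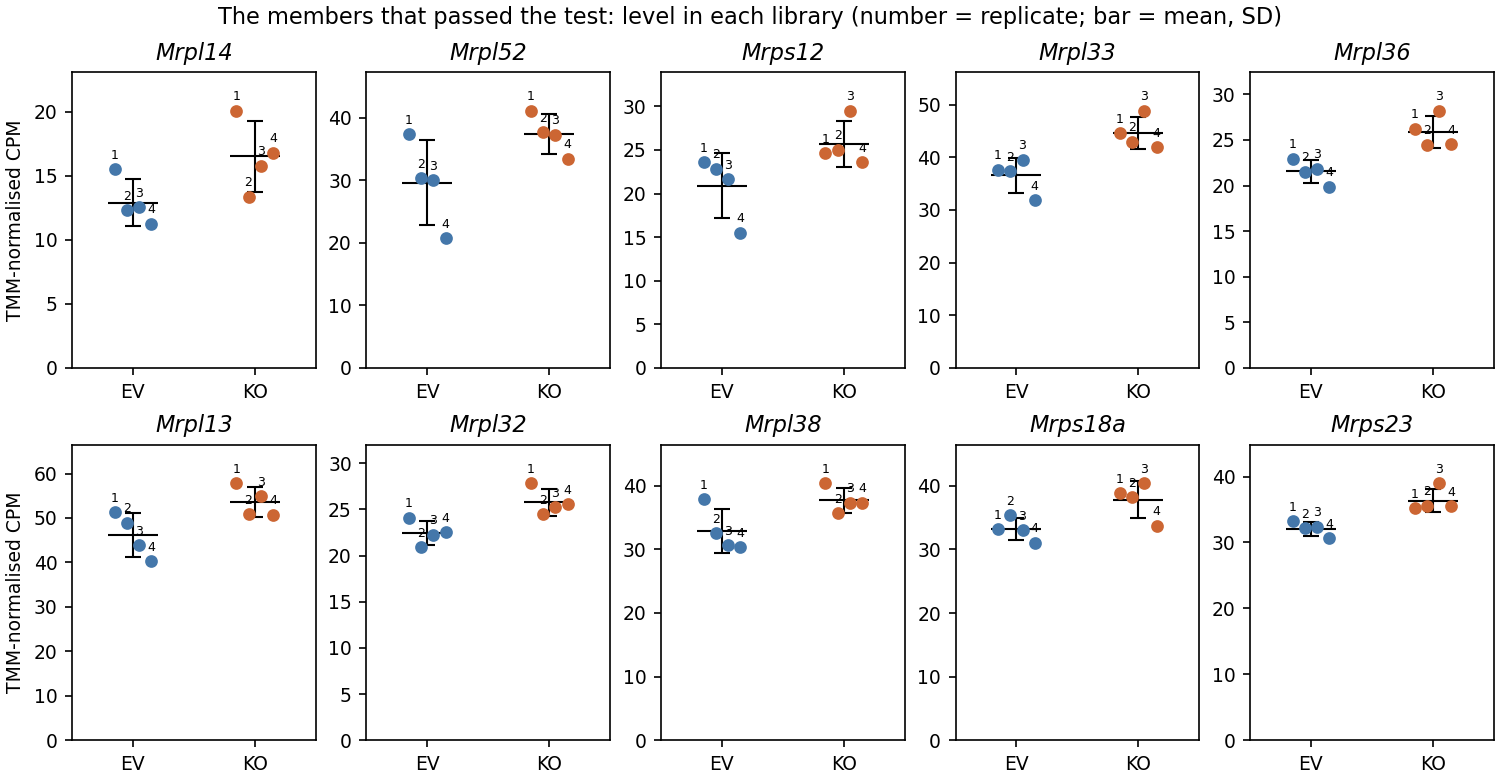
Level of the 10 members that passed the test in each library (y axis, TMM-normalised CPM from 0; x axis, EV and KO groups; small numbers give the replicate, the bar the mean and SD of 4 libraries). The groups are apart for Mrpl33, Mrpl36, Mrpl32 and Mrps23, and EV replicate 4 is the lowest library in every panel but that of Mrpl32.

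Of the 10 members that rose, 7 carry large-subunit names and Mrps18a, despite its name, also sits in the large subunit. Mrpl33, a small protein with a bacterial counterpart, had the smallest adjusted p. It lies at chr5:31596935-31701972 on the plus strand (mm10) and stood at 37.6, 37.3, 39.5 and 31.8 CPM in EV, replicates in order, and at 44.6, 43.0, 48.8 and 41.9 in KO. All 4 KO values were above all EV values, with a log2 fold change of 0.28 (SE 0.071) and an edgeR adjusted p of 0.0055. The annotated span of Mrpl33 holds other genes on both strands, and the labels and files do not say whether the counting used strand. Mrpl36 (chr13:73331009-73332175, plus strand), the counterpart of the smallest protein of the bacterial large subunit, was at 23.0, 21.5, 21.8 and 19.9 CPM in EV and at 26.2, 24.5, 28.2 and 24.5 in KO. Again the groups did not overlap; the log2 fold change was 0.26 with an SE of 0.073 (adjusted p 0.0117 in edgeR). Mrpl32 (chr13:14610301-14613037, minus strand), which a mitochondrial protease trims before the subunit is assembled, was at 24.1, 20.9, 22.3 and 22.5 CPM in EV and 27.9, 24.5, 25.2 and 25.6 in KO. The highest EV and lowest KO library were close, and the log2 fold change was 0.20 with an SE of 0.071 (adjusted p 0.0445 in edgeR).

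Larger but more scattered differences were seen in a pair of short transcripts. Mrpl14 (chr17:45686322-45698495, plus strand), a conserved protein on the face that meets the small subunit, was at 15.5, 12.3, 12.5 and 11.2 CPM in EV and at 20.1, 13.4, 15.8 and 16.8 in KO, a log2 difference of 0.36 (SE 0.117; adjusted p 0.0309 in edgeR). Mrpl52 (chr14:54426909-54429750, plus strand), a protein specific to mitochondria, was at 37.4, 30.3, 30.0 and 20.7 CPM in EV and at 41.1, 37.7, 37.3 and 33.5 in KO, a log2 difference of 0.34 (SE 0.116; adjusted p 0.0373 in edgeR). In both genes EV replicate 1 reached into the KO range and EV replicate 4 was lowest. Mrpl13 (chr15:55534094-55557748, minus strand; conserved) was at 51.2, 48.9, 43.8 and 40.3 CPM in EV and 57.8, 50.9, 54.9 and 50.8 in KO. Its log2 fold change was 0.22 with an SE of 0.071 (adjusted p 0.0295 in edgeR), with EV replicate 1 above the lowest KO libraries. Mrpl38 (chr11:116131817-116138868, minus strand), a protein of the central protuberance specific to mitochondria, was at 37.8, 32.6, 30.6 and 30.3 CPM in EV and 40.4, 35.6, 37.3 and 37.3 in KO. Its log2 fold change was 0.20 with an SE of 0.072 (adjusted p 0.0485 in edgeR), and EV replicate 1 lay within the KO range. Mrps18a (chr17:46110986-46128910, plus strand) was at 33.2, 35.4, 33.0 and 31.1 CPM in EV and 38.8, 38.3, 40.4 and 33.8 in KO, a log2 difference of 0.19 (SE 0.067; adjusted p 0.0462 in edgeR). KO replicate 4 fell among the EV values.

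In the small subunit 2 of 26 tested members rose (7.69%, beside 12.6% of all tested genes). Mrps12 (chr7:28739641-28741820, minus strand), a conserved protein of the decoding centre, was at 23.6, 22.9, 21.7 and 15.5 CPM in EV and at 24.6, 25.0, 29.5 and 23.6 in KO, a log2 difference of 0.30 (SE 0.106; adjusted p 0.0452 in edgeR). EV replicate 1 reached the lowest KO value, and EV replicate 4 was far below the rest. Mrps23 (chr11:88204388-88211507, plus strand), specific to mitochondria, was at 33.2, 32.2, 32.4 and 30.6 CPM in EV and at 35.2, 35.6, 39.0 and 35.5 in KO. Its groups did not overlap, and the log2 fold change was 0.18 with an SE of 0.061 (adjusted p 0.0347 in edgeR). In the large subunit 8 of 49 tested members rose (16.3%, beside the same 12.6%). The median log2 fold change was 0.07 in the large and 0.09 in the small subunit. Among the 44 members with a bacterial counterpart 6 rose (13.6%, median 0.09), and among the 28 specific to mitochondria 3 rose (10.7%, median 0.05). A difference between these groups was not tested.

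**Figure D2:**
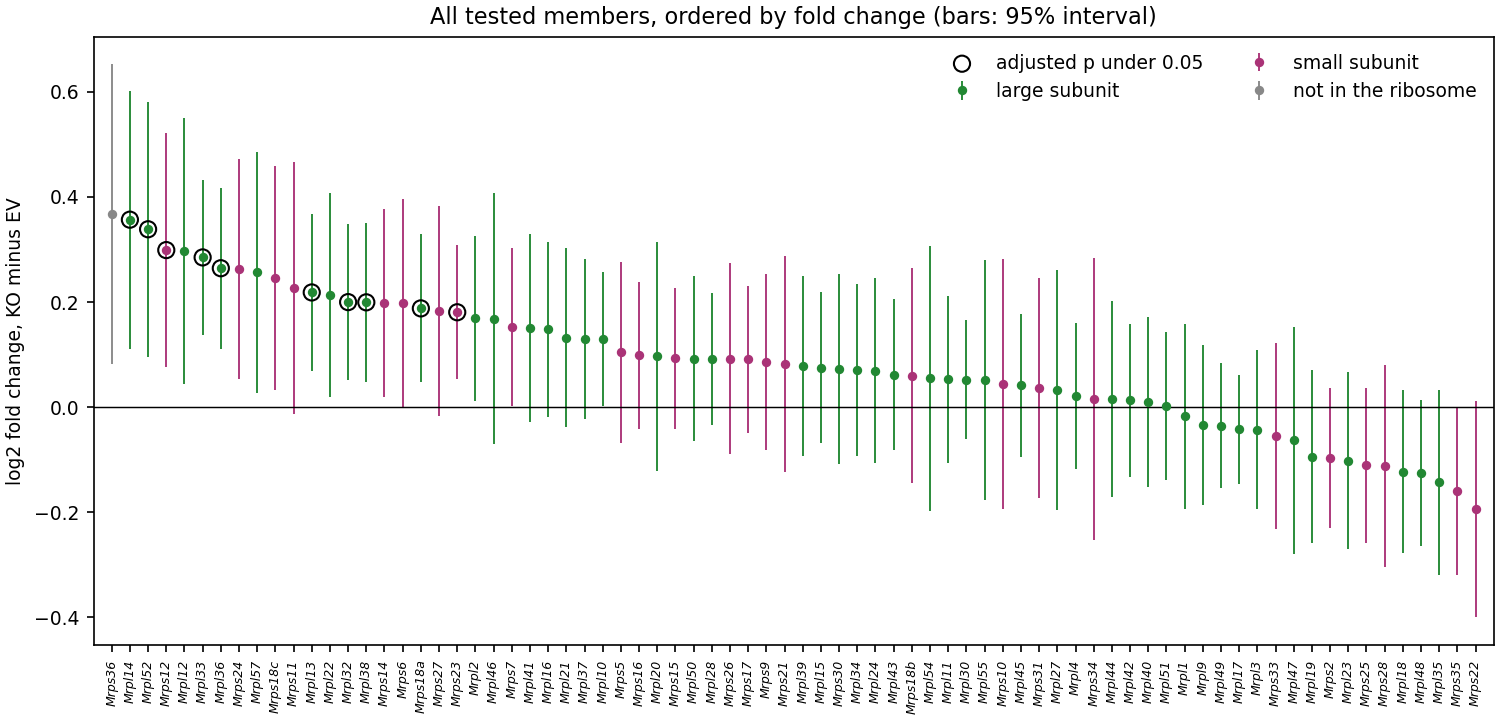
Log2 fold change (y axis, KO minus EV, edgeR) of all 76 tested members in order (x axis, gene symbols), with 95% intervals, coloured by ribosomal subunit and circled where the adjusted p is under 0.05. Most points lie above 0, from 0.37 for Mrps36 to -0.19 for Mrps22, and the intervals of most members cross 0.

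Several members have a role outside the ribosome core, and apart from Mrps18a none of those named here passed the test. Mrps36 had the highest fold change of all members but is now known as a component of the 2-oxoglutarate dehydrogenase complex. It was at 15.8, 17.0, 16.0 and 9.16 CPM in EV and 19.2, 18.6, 20.7 and 16.5 in KO, a log2 difference of 0.37 (SE 0.136; adjusted p 0.0541 in edgeR). EV replicate 4 was far below the others, and the fold change without it was 0.20. Mrpl12, a protein of the ribosomal stalk that also binds the mitochondrial RNA polymerase, was at 18.2, 14.2, 12.3 and 11.0 CPM in EV and 18.2, 18.3, 16.3 and 15.5 in KO (log2 fold change 0.30, edgeR adjusted p 0.0789). Of the other 2 paralogs of the bacterial S18 protein, Mrps18c had a log2 fold change of 0.25 (edgeR adjusted p 0.0850) and Mrps18b of 0.06 (0.695); the difference between the 3 paralogs was not tested. For Mrps30, a large-subunit protein despite its name, the fold change was 0.07 (edgeR adjusted p 0.576), and for Mrpl41, also described as a regulator of apoptosis, 0.15 (0.215).

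No member passed the test in the other direction. The members with the lowest fold changes were picked after their values were seen. Mrps22, a mitochondria-specific small-subunit protein mutated in human mitochondrial disease, was at 18.1, 17.7, 19.2 and 21.4 CPM in EV and 16.0, 13.9, 16.9 and 19.6 in KO (log2 fold change -0.19, SE 0.098, edgeR adjusted p 0.161). KO replicate 4 lay inside the EV range. Mrps35 had a log2 fold change of -0.16 (edgeR adjusted p 0.136) and Mrpl35 of -0.14 (0.228). Mrpl48, a protein of the central protuberance, was at 28.0, 26.4, 28.2 and 27.2 CPM in EV and 23.8, 23.9, 26.3 and 26.4 in KO. Its groups did not overlap, by a narrow margin, and its log2 fold change of -0.13 (SE 0.066) had an edgeR adjusted p of 0.177.

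Levels per length differed far more between members than between the conditions. In the deposited FPKM values, which are scaled for gene length and library size, the mean over the 8 libraries ran from 2.40 for Mrps10 to 81.1 for Mrpl52, with a median of 17.6 beside 8.55 for all tested genes. After Mrpl52 came Mrpl30 at 54.5, Mrpl34 at 54.4, Mrpl54 at 50.6 and Mrpl28 at 48.6 FPKM, all large-subunit proteins. Over the libraries Mrpl30 ran from 51.0 to 57.0 FPKM, Mrpl34 from 46.0 to 58.9, Mrpl54 from 38.2 to 64.8 and Mrpl28 from 43.9 to 50.9. These ranges overlap from each gene to the next, whereas Mrpl52, at 51.4 to 98.1, overlapped the next gene only in its lowest library. At the other end stood Mrps10 at 2.0 to 2.8, Mrps25 at 3.20 to 3.93 and Mrpl47 at 3.38 to 4.55 FPKM. Mrps10 lay below both others in all libraries, and Mrps25 and Mrpl47 overlapped. The table gives these 3 genes lengths of 4090, 6073 and 3364 bases, above the members' median of 1408, and a listed length above that of the expressed transcript lowers FPKM. Of these high and low genes Mrpl52 alone passed the test between the conditions.

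Most of the calls were lost when 1 library was left out. Mrpl33 rose in all 8 fits that left out 1 library and in 11 of 13 other settings, with log2 fold changes from 0.22 to 0.32. Mrpl36 rose in 7 of the 8 fits, being lost without KO replicate 3 (edgeR adjusted p up to 0.0901 over all settings), and in 11 of 13 other settings. The remaining 8 members each rose in 2 to 4 of the 8 fits. Every one of them lost its call without EV replicate 3, without EV replicate 4 and without KO replicate 1, and every one but Mrpl14 without KO replicate 3. Without EV replicate 2 the calls of Mrpl14, Mrpl32, Mrpl38, Mrpl52 and Mrps23 were lost, without KO replicate 2 those of Mrpl52, Mrps12 and Mrps18a, and without KO replicate 4 those of Mrpl14, Mrpl32, Mrpl38 and Mrps23. Mrps18a also lost its call without EV replicate 1. Over all settings the fold changes of these 8 members stayed above 0, from 0.08 for Mrpl32 to 0.51 for Mrpl14. Scaling by library totals alone moved the median of all tested genes to -0.05, with 8.12% of them higher, and left 2 members higher, Mrpl33 and Mrpl36.

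**Figure D3:**
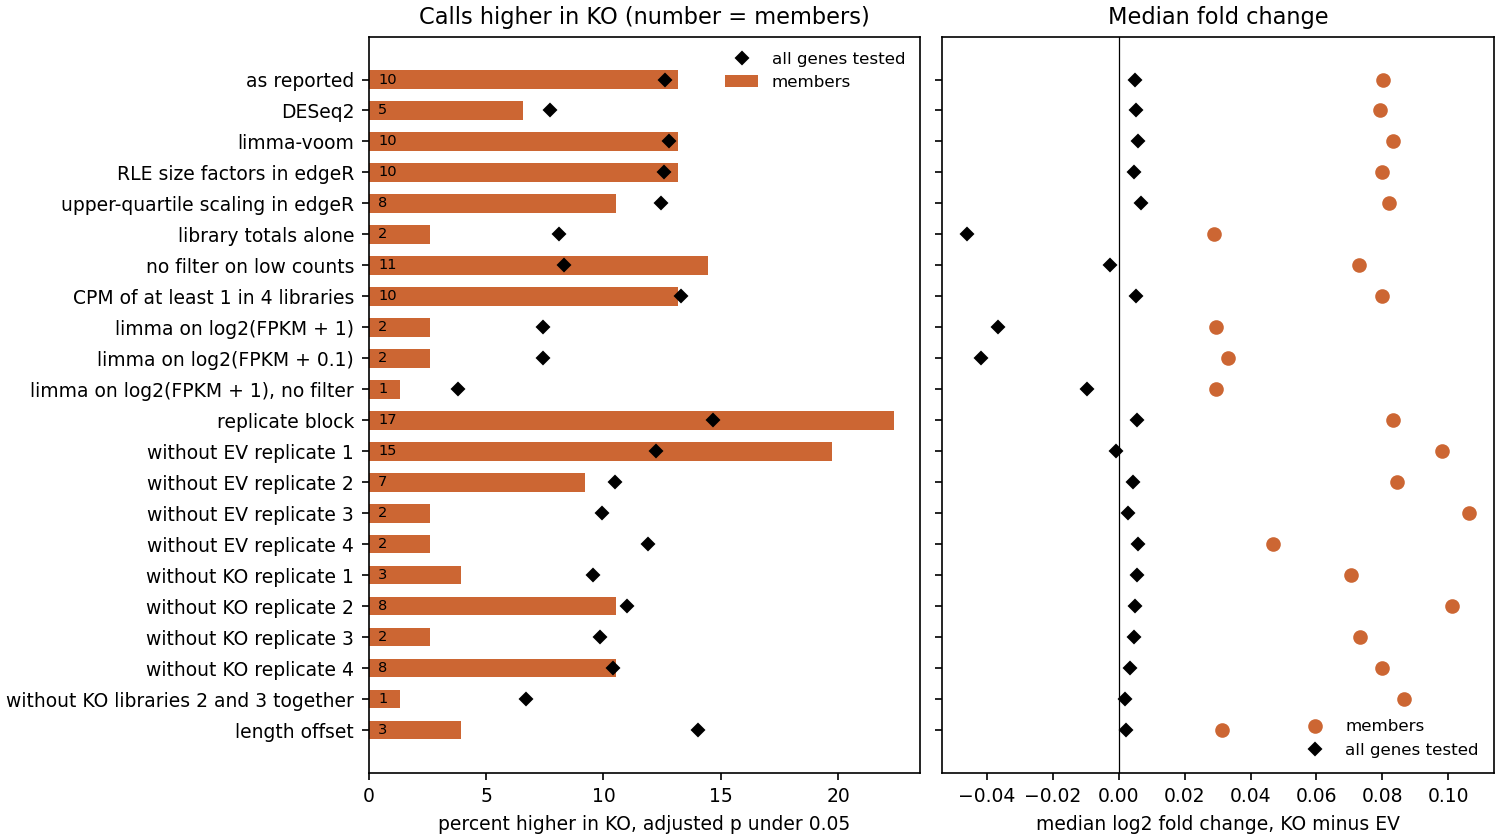
Left, percent of the members (bars, with their number) and of all tested genes (diamonds) that rose in KO under each setting (y axis). With DESeq2 and in the fits without a filter the tested genes are 20062, beside 12801 in the main test. Right, the median log2 fold change (x axis, KO minus EV) of the members (circles) and of all tested genes (diamonds): the members' median lies between 0.03 and 0.11 in every setting, while their count of calls runs from 1 to 17.

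The median deviation of the 76 members from the mean of the 8 libraries, in log2 CPM, was 0.048, -0.0085, -0.014 and -0.18 in EV and 0.059, 0.021, 0.071 and 0.026 in KO. EV replicate 1 lay among the KO libraries and EV replicate 4 far below all others. In EV replicate 4 the 79 cytosolic ribosomal proteins deviated by -0.33, the 77 nuclear genes of oxidative phosphorylation by -0.22, and the other tested genes of up to 1000 bases by -0.19. These name groups were chosen after the data were seen. The part of EV replicate 4 and of gene length in the members' fold changes was not tested beyond the fits without that library and with a length offset.

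**Figure D4:**
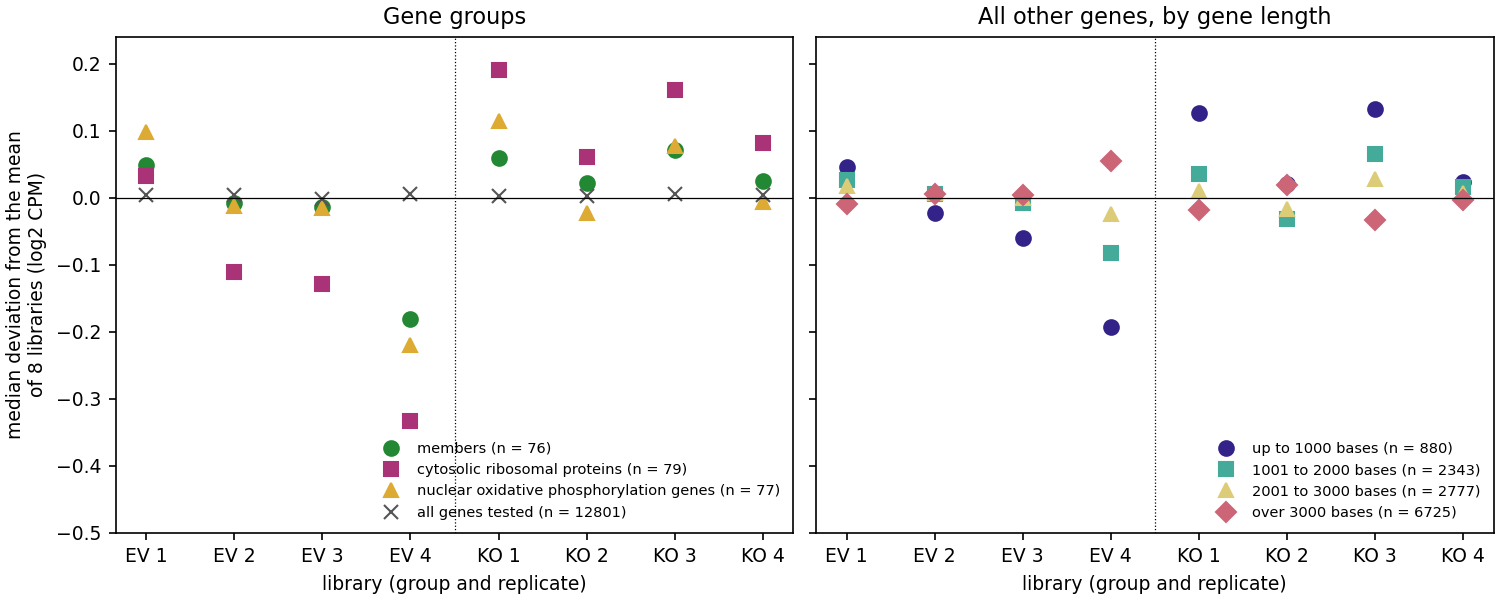
Median deviation from the mean of the 8 libraries (y axis, log2 CPM) in each library (x axis), on the left for the members and 3 other gene groups and on the right for all other tested genes by annotated length. EV replicate 4 is low for the members (-0.18) and for genes of up to 1000 bases (-0.19).

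Short members had higher fold changes than long ones, as had other genes. Spearman's rho between annotated length and log2 fold change was -0.36 over the 76 members and -0.16 over all tested genes; it is across genes of the same libraries and is given without a test. Of the 22 members of up to 1000 bases 5 rose, with a median of 0.12, beside a median of 0.14 for the 880 other genes of that length, of which 17.6% rose. Above 1000 and up to 2000 bases 2 of 26 members rose, with a median of 0.08 beside 0.04 for other genes, of which 13.2% rose. Above 2000 and up to 3000 bases 2 of 13 rose, beside 11.8% of other genes, with a median of 0.09 beside 0.01. Above 3000 bases 1 of 15 rose, Mrpl13, as did 809 of 6725 other genes, and the median was -0.04 beside -0.02. When an offset for length was added in each library, 14.0% of all tested genes rose and 3 members did: Mrpl33 with a log2 fold change of 0.29, Mrpl13 with 0.25 and Mrps18a with 0.18. Under that offset 44 members had fold changes above 0 and 32 below, with a median of 0.03, and Mrpl36 had an edgeR adjusted p of 0.0658. Mrpl23, a short large-subunit gene named here for this result, then fell by 0.24 on the log2 scale (edgeR adjusted p 0.0265), against -0.10 (0.384) without the offset.

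**Figure D5:**
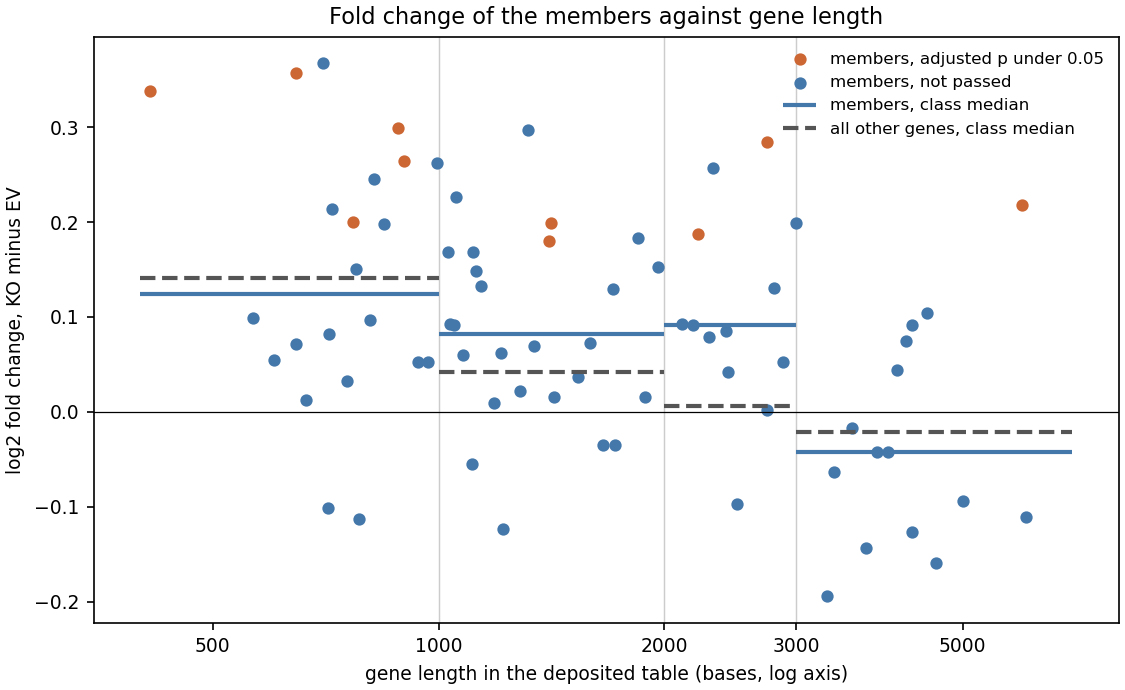
Log2 fold change (y axis, KO minus EV) of each tested member against its annotated length (x axis, log scale, bases), orange where the adjusted p is under 0.05; lines are the medians of members (solid) and of all other tested genes (dashed) in 4 length classes. The medians are highest in the shortest class, at 0.12 for members and 0.14 for other genes, and lowest in the longest, at -0.04 and -0.02.

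The genomic setting of the members varied. All 10 tested members on chromosome 11 had fold changes above 0 (median 0.17, beside 0.05 for all tested genes of that chromosome) and 2 of them rose, as did 17.5% of all tested genes there. On chromosome 13, 2 of 5 rose, beside 19.2% of all tested genes there (median 0.20, beside 0.08). On chromosome 6, 1 of 6 was above 0 (median -0.10), where the median of all 632 tested genes was -0.08 and 24.8% of them fell. These 3 chromosomes were picked from those that hold members. The median of the members was 0.26 on chromosome 14, beside -0.04 for all tested genes there, and 0.10 beside -0.04 on chromosome 2. It was 0.08 beside -0.02 on chromosome 1 and 0.06 beside -0.04 on chromosome 19. On the other chromosomes with members both medians had the same sign. A link to the chromosome was not tested. Another annotated gene overlaps 31 of the 76 tested members, and 4 of these rose (12.9%). Of the 45 without overlap 6 rose (13.3%), beside 12.6% of all tested genes. Mrpl53 (chr6:83109095-83109939, plus strand) was listed at 0 counts in all 8 libraries and was not tested. It lies wholly inside Ccdc142 on the same strand, which held 235 counts over all libraries, so reads of the 2 genes may not have been told apart by the counting. The table also holds 4 pseudogenes named after members, Mrpl23-ps1, Mrpl48-ps, Mrps36-ps1 and Mrps36-ps2, with 75, 47, 22 and 5 counts over the 8 libraries.

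A head-to-head protein-coding neighbour starting within 1000 bases was annotated for 18 of the 76 tested members (23.7%), beside 10.8% of all tested protein-coding genes. Of the 17 neighbours that were tested, 1 rose and 2 fell, where 12.6% of all tested genes rose and 13.4% fell. The sign of the fold change was that of the member for 11 of the 17. Fau, beside Mrpl49, was the 1 that rose (log2 fold change 0.20, edgeR adjusted p 0.0140), and Mrpl49 itself was at -0.04. The 2 that fell are both genes of chromosome segregation. All 3 of these pairs were picked after their values were seen. Ska3, a kinetochore gene whose start is 76 bases from that of Mrpl57, had a log2 fold change of -0.42 (edgeR adjusted p 0.0192). Mrpl57, whose promoter is given with the sequences, was at 20.8, 19.9, 22.1 and 14.4 CPM in EV and 23.7, 22.0, 26.3 and 20.2 in KO, a log2 fold change of 0.26 (edgeR adjusted p 0.0947). Ncapd2, a condensin gene that starts 100 bases from Mrpl51, had a log2 fold change of -0.67 (edgeR adjusted p 8.6e-07). Mrpl51 itself was at 49.9, 48.6, 49.2 and 39.7 CPM in EV and 47.0, 48.5, 46.4 and 45.7 in KO, with a 95% interval of the log2 fold change from -0.14 to 0.14. The difference between the genes of a pair was not tested.

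Proteins of the mitochondrial ribosome that go by other names were tested for 6 genes. Of these 0 rose, beside 12.6% of all tested genes, and 1 fell (16.7%, beside 13.4%). At an unadjusted p under 0.05 in edgeR 0 were higher, and 0 rose in DESeq2 and limma-voom too. Ptcd3, a small-subunit protein of the pentatricopeptide family, was at 51.3, 51.1, 54.9 and 59.9 CPM in EV and 45.5, 47.3, 45.6 and 47.9 in KO. The groups did not overlap, and the log2 fold change was -0.22 with an SE of 0.059 (adjusted p 0.00946 in edgeR). Dap3, a small-subunit GTP-binding protein, had a log2 fold change of -0.10 (edgeR adjusted p 0.188). Among 27 tested assembly factors 3 rose (11.1%, beside 12.6% of all tested genes) and 1 fell (3.70%, beside 13.4%). In the limma fits on log2 FPKM 0 of the 27 rose and 1 fell. C1qbp, a matrix chaperone, rose from 136, 132, 131 and 113 CPM in EV to 153, 137, 152 and 146 in KO, a log2 difference of 0.20 (SE 0.056; adjusted p 0.0126 in edgeR). Dhx30, an RNA helicase, fell from 84.7, 79.1, 81.4 and 85.6 CPM to 70.3, 72.1, 74.8 and 75.2, by 0.18 on the log2 scale (SE 0.049, edgeR adjusted p 0.0119). That call was lost without KO replicate 1. The rRNA methyltransferase Mrm1 (log2 fold change 0.32, edgeR adjusted p 0.0195) and the endonuclease Ybey (0.47, adjusted p 0.0144), named after their values were seen, were the others that rose. The call of Mrm1 was lost when replicate 4 of EV, or replicate 2 or 3 of KO, was left out, and that of Ybey without EV replicate 3.

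Factors of mitochondrial translation were mostly without a detected change. Of 15 tested, 1 rose (6.67%, beside 12.6% of all tested genes) and 0 fell, beside 13.4%. At an unadjusted p under 0.05 in edgeR 1 was lower, and DESeq2 and limma-voom called 0 lower. Lrpprc, which stabilises mitochondrial mRNAs, was at 94.5, 100.0, 99.7 and 106 CPM in EV and 111, 118, 117 and 119 in KO, without overlap. Its log2 fold change was 0.22 with an SE of 0.048 (adjusted p 0.00238 in edgeR), and it kept its call in all settings. The initiation factor gene Mtif2 had a log2 fold change of -0.20 (edgeR adjusted p 0.0966). Of 19 mitochondrial aminoacyl-tRNA synthetases and amidotransferase subunits edgeR called 0, with 3 at an unadjusted p under 0.05, and DESeq2 and limma-voom 0. Gatc and Qrsl1, both of the glutaminyl-tRNA amidotransferase, had log2 fold changes of -0.24 (edgeR adjusted p 0.0815) and -0.32 (0.108), and Gatc fell past the threshold without KO replicate 1. Of 12 genes of mitochondrial DNA maintenance and transcription edgeR called 0, with 3 at an unadjusted p under 0.05, and DESeq2 and limma-voom 0. The DNA polymerase gene Polg had a log2 fold change of 0.16 (edgeR adjusted p 0.0553), and Ssbp1, for a single-strand binding protein, of -0.19 (0.103).

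Of 11 tested regulators of nuclear genes for mitochondria 5 fell, beside 13.4% of all tested genes, and 0 rose (0 also at an unadjusted p under 0.05 and in DESeq2 and limma-voom), with a median log2 fold change of -0.13. Ppargc1a, a coactivator of mitochondrial biogenesis, was at 10.1, 12.9, 13.4 and 13.3 CPM in EV and 8.81, 10.2, 8.97 and 8.52 in KO. Its log2 fold change was -0.45 with an SE of 0.108 (adjusted p 0.00449 in edgeR), with EV replicate 1 at the edge of the KO range. Its relatives Pprc1 and Ppargc1b had log2 fold changes of -0.26 (edgeR adjusted p 0.0051) and -0.37 (0.0323). Yy1 itself fell from 97.3, 97.7, 97.8 and 99.5 CPM to 85.4, 88.2, 92.0 and 92.3, by 0.13 on the log2 scale (SE 0.046, edgeR adjusted p 0.0409). Gabpb2, a subunit of GABP named after its value was seen, had a log2 fold change of -0.21 (edgeR adjusted p 0.0466). Between 2 and 5 regulators fell when 1 library was left out, and 1 without KO replicates 2 and 3 together. The calls of Ppargc1a and Pprc1 held in each fit that left out 1 library. Ppargc1b lost its call without EV replicates 2 or 3 or KO replicates 3 or 4, Yy1 without any 1 library except EV replicate 1, and Gabpb2 without any except EV replicate 1 or KO replicates 2 or 4.

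Of 12 tested mitochondrially encoded mRNAs, which the mitochondrial ribosome translates, 5 rose, beside 12.6% of all tested genes, and 0 fell (0 also at an unadjusted p under 0.05 and in DESeq2 and limma-voom), with a median log2 fold change of 0.28. The complex I subunit mt-Nd6 was at 127, 121, 117 and 137 CPM in EV and 182, 148, 163 and 207 in KO, without overlap (log2 fold change 0.48, SE 0.077, edgeR adjusted p 0.000108). For mt-Cytb of complex III the values were 878, 781, 906 and 911 in EV and 1096, 958, 1049 and 1273 in KO, again without overlap (log2 fold change 0.33, SE 0.069, edgeR adjusted p 0.00125). The groups overlapped for mt-Nd4 (log2 fold change 0.37, edgeR adjusted p 0.000971), mt-Co1 (0.30, adjusted p 0.0169) and mt-Nd5 (0.29, adjusted p 0.0209; named after its value was seen). Here EV replicate 4 was the highest EV library for all 5, unlike in most nuclear members, and without it 6 of the 12 rose. In other fits without 1 library 3 to 7 rose, and 3 of 13 did with DESeq2, 1 to 4 in the limma fits on log2 FPKM and 9 of 12 with the replicate block. The calls of mt-Co1 were lost without EV replicate 2 or KO replicate 4, and those of mt-Nd5 also without EV replicate 1 or 3. Mean levels of the 12 ran from 1.90 FPKM to 1641 for mt-Co1, with mt-Co2 at 16.9. The aligner and counter are not known, and the cause of these gaps was not tested.

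Beside the cytosolic ribosome the changes of its mitochondrial relative were small. Of 79 tested cytosolic ribosomal proteins 58 rose (73.4%, beside 12.6% of all tested genes), with a median log2 fold change of 0.24. Without EV replicate 4, 50 did (median 0.18), with the length offset 42 (median 0.15), and in the limma fits on log2 FPKM 6 to 19. Their median level was 502 FPKM and their median length 930 bases, beside 17.6 FPKM and 1408 bases for the members. Of 77 nuclear genes of oxidative phosphorylation 15 rose (19.5%) and 1 fell, with a median of 0.08. Without EV replicate 4, 8 rose and 2 fell (median 0.03), and with the length offset 8 rose and 6 fell (median 0.02). The medians of the members were 0.08 with and 0.05 without EV replicate 4, and 0.03 with the length offset. Differences between these groups were not tested.

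Some markers of other cell types were measured, and some differed between the groups. The summed level of 12 hepatocyte genes, 2 of which reached 1 CPM and none of which was at 0 throughout, was 7.08 to 9.42 CPM in EV and 13.3 to 27.3 in KO, highest in KO replicates 2 and 3. Without those 2 libraries 1 of 76 members rose, beside 6.69% of all tested genes, and the median of the members was 0.09. Of 10 cardiomyocyte genes 3 reached 1 CPM and Nppa was at 0 in all libraries, and their sum was 145 to 157 CPM in EV and 113 to 130 in KO, nearly all of it Tnnt2 (mean 145 in EV and 115 in KO). Of 8 endothelial genes 3 reached 1 CPM, with a sum of 26.8 to 29.9 in EV and 19.7 to 21.8 in KO. Most of that sum was Kdr, which fell by 0.58 on the log2 scale (edgeR adjusted p 1.3e-05), as Robo4 did by 1.44 (0.00171), whereas Tek rose by 0.42 (0.0298). Of 7 leukocyte genes 2 reached 1 CPM, with a sum of 6.41 to 7.59 in EV and 9.93 to 11.2 in KO. Of 6 neural genes 2 reached 1 CPM and Snap25 was at 0, with a sum of 119 to 128 in EV and 112 to 118 in KO, nearly all of it Mbp (mean 123 in EV and 112 in KO). The 6 erythroid genes, Hba-a2 at 0 among them, and the 6 genes of gut and kidney epithelium, with Umod at 0, each summed to less than 1 CPM in every library. The part of these markers in the members' fold changes was not tested.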

How the data were processed

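RNA from 4 EV and 4 KO libraries of a mouse epicardial cell line was sequenced by the submitters. The deposited files hold raw read counts per gene and FPKM per gene that the authors computed from them. The genome build was mm10 and DESeq 1.6.3 was used, per the submitters' processing notes. The aligner, counter, annotation release and strand setting could not be read from the labels or files used here. Counts were tested with edgeR 4.0.16 (TMM scaling, filterByExpr with a minimum count of 10, quasi-likelihood F test, two-sided, no covariates, R 4.3.3), and p-values were adjusted by Benjamini-Hochberg over all 12801 genes kept, with a threshold of 0.05. Alternatives were DESeq2 1.42.0, limma 3.58.1 on voom weights or on log2 of FPKM plus a pseudocount of 1 or 0.1, other scalings and filters, the replicate block, and libraries left out. An offset for gene length was added after the lengths and fold changes were seen.

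Replicate numbers are shared by the groups. No label says that they mark a shared culture or day. The chi-square per degree of freedom between libraries of one group was 4.01 to 13.2, so no library was a copy of another in its group. Pairs across the groups were not examined in this way.

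The members and all lists were chosen with earlier results of these data known. The genes named are the members past the threshold (up to 12 in each direction), the 5 highest and 3 lowest by mean FPKM, those that failed the filter, 7 with a role apart, and the smallest adjusted p in each other list (up to 4 where 1 in 3 passed, otherwise 2). Others are marked as chosen after their values were seen. Other cell type lists are given as summed levels, and some of their genes are not reported here by name. Intervals are 95% and cover the spread between libraries. Motifs were counted in RefSeq promoters (GRCm38.p6), and neighbours and overlaps come from the coordinates in the deposited table. Mitochondrial rRNAs and the listed genes without a row were not analysed here.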

Additional observations from a re-analysis of the deposited data

Results flagged for a closer look

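In 5 of 108 groups of 4 libraries examined, the highest or lowest library lay further from its nearest neighbour than Dixon's 95% limit allows. Chance flags about 1 in 20 such groups. Mrps36 was at 9.16 CPM in EV replicate 4, with the next EV library at 15.8. Mrpl51 was at 39.7 CPM in the same library, with the next at 48.6. Mrps23 was at 39.0 CPM in KO replicate 3, with the next KO library at 35.6. Polg was at 39.3 CPM in KO replicate 2, with the next at 36.4. Ppargc1a was at 10.1 CPM in EV replicate 1, with the next EV library at 12.9.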

How the results depend on the processing

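The median log2 fold change of the members stayed above 0 in every setting, from 0.03 to 0.11. The 10 members that rose became 5 with DESeq2, where 1548 genes rose, beside 1613 in the main test. Those 1548 are 7.72% of 20062 genes, a wider set than the 12801 of the main test, so the 2 shares are not alike. The 10 became 2 with library totals alone, 2 with limma on log2(FPKM + 1) and 2 with a pseudocount of 0.1. They became 1 without the FPKM filter, 1 without KO replicates 2 and 3 together (6.69% of all genes) and 3 with the length offset. When 1 library was left out, the count ran from 2 to 15 (15 without EV replicate 1, beside 12.2% of all genes). The count of members that fell was 1 with library totals alone (Mrps35), 1 with the length offset (Mrpl23) and 0 to 1 when 1 library was left out (Mrps22 without KO replicate 4). The 1613 genes that rose became 1039 with library totals alone (2414 lower), 896, 897 and 766 in the FPKM fits and 880 without KO replicates 2 and 3, and the 1711 that fell became 1094 in the last. With the replicate block 17 members (22.4%) and 14.7% of all genes rose. Same-numbered libraries deviated with correlations of 0.12, -0.03, 0.06 and 0.09, and 3 of the 4 EV libraries, all but replicate 2, correlated best with their own number. No label pairs the libraries, so the numbers were not taken as pairs. The sign turned for Mrps18b, Mrpl30, Mrpl34, Mrpl54, Mrps10, Mrpl51 and Hdac3, all with fold changes near 0, and the cause was not tested. With the length offset the log2 fold change was -0.018 for Mrps18b, -0.038 for Mrpl30, -0.073 for Mrpl34, -0.089 for Mrpl54 and 0.0056 for Hdac3. Leaving out 1 library gave -0.0043 to 0.14 for Mrps18b, -0.059 to 0.19 for Mrpl54, -0.032 to 0.12 for Mrps10, -0.023 to 0.032 for Hdac3 and -0.070 to 0.027 for Mrpl51. For Mrps10 the value was -0.0073 with library totals and -0.015, -0.024 and -0.015 in the FPKM fits. For Mrpl51 it was -0.049 with library totals, -0.0053 without a filter on counts, -0.041, -0.043 and -0.041 in the FPKM fits and -0.014 without KO replicates 2 and 3, where Hdac3 was at 0.024. Over the single named genes 891 values kept their direction and side of the threshold, 167 lost and 30 gained a call.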
